A study of Saccharomyces cerevisiae with 12 samples.

Results

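The 10 genes described here encode the cyclins that work with the cell cycle kinase of budding yeast, and that kinase itself: the G1 cyclins CLN1 (YMR199W), CLN2 (YPL256C) and CLN3 (YAL040C), the B-type cyclins CLB1 (YGR108W), CLB2 (YPR119W), CLB3 (YDL155W), CLB4 (YLR210W), CLB5 (YPR120C) and CLB6 (YGR109C), and CDC28 (YBR160W). They were picked out by their systematic ORF names, with earlier results of these data known, and all 10 are among the 6174 ORFs of the deposited table. Values for 3 of them, CLN1, CLN2 and CLN3, were present on all 12 arrays, as they were for 1592 ORFs of the whole table. The genes lie on chromosomes I, II, IV, VII, XII, XIII and XVI; CLB1 and CLB6 are direct neighbours on chromosome VII, and CLB2 and CLB5 are direct neighbours on chromosome XVI. Each pair is read from opposite strands.

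The study measured mRNA on 2-colour arrays in the yeast strain CML128 and 3 derivatives that differ in HCM1, which encodes a forkhead transcription factor. The wild type was CML128, which is MATa and carries his4, trp1, ura3-52 and a leu2 mutation. The deletion strain Δhcm1 was MJRC05 (hcm1::natMX4), the tagged strain HCM1HA was GRB2405 (HCM1-3HA::natMX4, HCM1 with its own promoter), and tetHCM1HA was MJRC07 (tetO7-HCM1-3HA::kanMX4 made in GRB2405). All strains share the CML128 background and its auxotrophies, and both HA strains carry the tag. Doxycycline represses the tet promoter, and the cultures grew exponentially in YPD at 30 °C. The comparisons were Δhcm1 over wild type, tetHCM1HA over HCM1HA, and tetHCM1HA without over with 10 h of doxycycline. The controls were HCM1HA over wild type and HCM1HA with 4 h or 10 h of doxycycline over HCM1HA without it. Each comparison had 2 arrays, Exp 1 and Exp 2, with the dyes swapped.

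Cdc28 is the kinase that drives the budding yeast cell cycle, and it acts only when a cyclin is bound. Cln3 acts first in G1 and sets off the transcription of CLN1 and CLN2, whose products bring the cell through Start; Clb5 and Clb6 drive DNA replication, Clb3 and Clb4 act in spindle assembly, and Clb1 and Clb2 drive mitosis. CLN1, CLN2, CLB5 and CLB6 are transcribed at the G1/S boundary by the factors SBF and MBF, and CLB1 and CLB2 belong to a cluster of genes transcribed in G2 and M by Mcm1 with Fkh2 and Ndd1. Hcm1 itself is made in late G1 and acts in S phase, and genes for later cell cycle regulators are among its known targets.

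The values are log2 ratios, so a value of 1 is a 2-fold higher mRNA level in the first-named culture. Every array was centred on its median. Arrays held 2520 to 6174 values and 5 to 10 of the 10 genes, and the correlation between the 2 arrays of a comparison was 0.526 to 0.761 over ORFs in 5 of the 6 comparisons. The exception was HCM1HA over wild type, whose 2 columns mirrored each other (r = -0.999). Only its first column was used, and its direction is not settled. The HCM1 ratios followed the labels: -3.55 and -3.18 in the deletion, 5.31 and 5.02 in tetHCM1HA over HCM1HA, and 5.79 and 5.51 in tetHCM1HA without over with doxycycline. In the doxycycline controls HCM1 itself was at 0.50 on the 1 array that measured it at 4 h and at 1.37 and 0.68 at 10 h.

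A ratio cannot tell a change of mRNA per cell from a change in the share of cells in a phase of the cycle, and for cyclin genes both would give the same value. Ratios also give no level, so the MATa label could be checked only through ratios of its markers: 3 or 4 of the 5 MATa markers were measured in the 3 Hcm1 comparisons, with medians of -0.22, -0.37 and -0.44 in the order above. The α-factor gene MF(ALPHA)2 was the 1 marker of MAT alpha cells measured, in the deletion only, at -0.56.

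Differences were judged in 2 ways. The first, called the control test below, takes the dye-swapped pair as 1 replicate and measures spread between the control comparisons, with limma and p adjusted over all ORFs tested; it needs values in at least 2 controls, which CLB1, CLB2, CLB4 and CLB6 lack. The second, the array test, treats each array as a replicate with a term for Exp number, and so sees only the spread between dye-swapped arrays, which may be technical. Both call at an adjusted p below 0.05. The control test counts any true response to doxycycline in the controls as spread. SDs are over the 2 arrays.

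**Figure D1:**
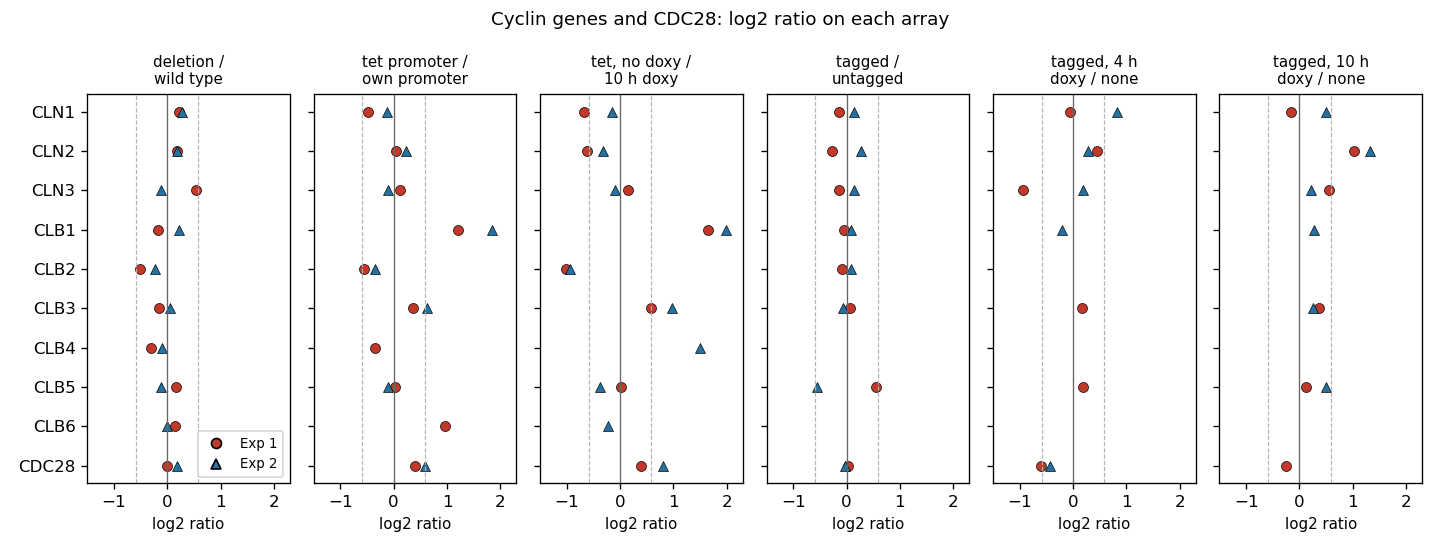
Each panel is 1 comparison, and each point is the centred log2 ratio of a gene on 1 array, with circles for Exp 1, triangles for Exp 2 and dashed lines at 1.5-fold. CLB1 lies past the right dashed line on both arrays of both tet comparisons, CLB2 past the left one on both arrays of tet without over with doxycycline, and CLN2 past the right one on both arrays of 10 h doxycycline; the 2 columns of the tagged strain mirror each other.

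The mitotic cyclin genes CLB1 and CLB2 gave ratios of opposite sign when HCM1 was overexpressed. CLB1 was 1.20 and 1.85 on the 2 arrays of tetHCM1HA over HCM1HA, a mean of 1.52 ± 0.46 (SD, n = 2), or 2.87-fold higher. Both arrays were high, and CLB1 ranked 14 from the highest of 3955 ORFs. In tetHCM1HA without over with doxycycline it was 1.64 and 1.99, a mean of 1.82 ± 0.25 (SD, n = 2), or 3.52-fold higher and 26 from the highest of 4307. CLB1 passed the array test in both, with limma adjusted p = 0.000169 and 2.90e-05. With ORFs of 1 control value let in, the control test gave adjusted p = 0.867 and 0.216 for it, so CLB1 passed against the spread between arrays and not against the spread between controls. The 2 comparisons share the untreated tetHCM1HA strain, so their values are not independent.

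CLB2, which encodes the main mitotic cyclin, was lower in both. Its ratios were -0.55 and -0.36 in tetHCM1HA over HCM1HA (mean -0.45 ± 0.14, SD, n = 2) and -1.02 and -0.94 in tetHCM1HA without over with doxycycline (mean -0.98 ± 0.05, SD, n = 2), the second a 1.97-fold lower level. All 4 arrays were below 0. It ranked 149 from the lowest of 4307 ORFs in the second comparison. CLB2 passed the array test in both comparisons, with limma adjusted p = 0.0269 and 0.000449. In the control test with ORFs of 1 control value let in, it passed in neither (adjusted p = 1.00 and 0.439).

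Within an array, CLB1 minus CLB2 does not depend on how the array was centred. The difference was 1.75 and 2.20 in tetHCM1HA over HCM1HA (mean 1.98 ± 0.32, SD, n = 2) and 2.66 and 2.93 in tetHCM1HA without over with doxycycline (mean 2.80 ± 0.19, SD, n = 2). These correspond to a 3.94-fold and a 6.95-fold shift of the CLB1 to CLB2 ratio. In the deletion it was 0.35 and 0.44, and on the first column of the tagged strain 0.04. The pair was not measured together with doxycycline alone, because CLB2 had no value on any array of the doxycycline controls. CLB1 had a value on the Exp 2 array only, -0.20 at 4 h and 0.27 at 10 h. The part of doxycycline in the CLB2 value was therefore not tested; for CLB1, adding the 10 h control ratio of Exp 2 to its ratio without over with doxycycline gave 2.26.

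**Figure D2:**
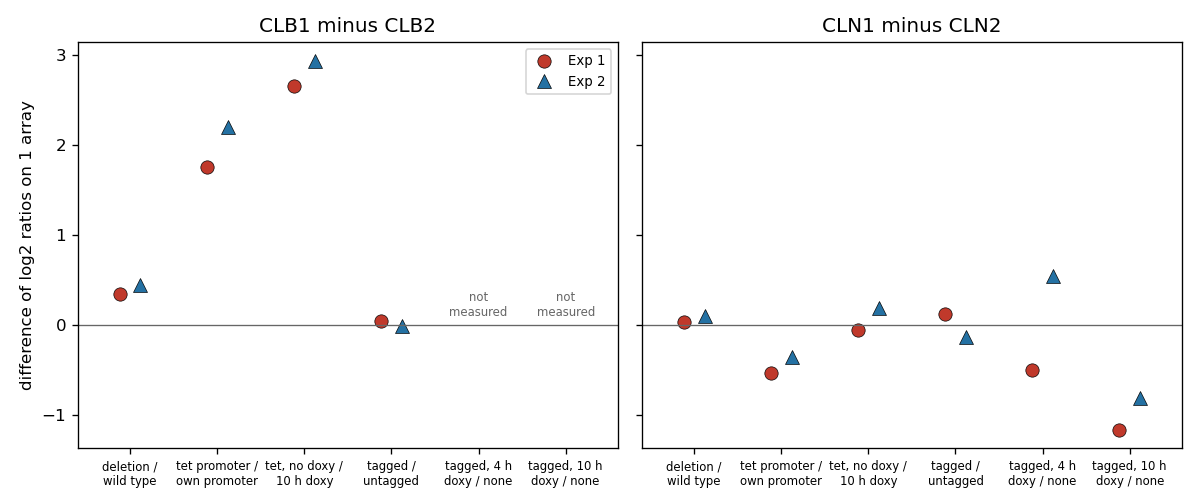
The left panel plots the CLB1 log2 ratio minus the CLB2 log2 ratio on the same array, the right panel CLN1 minus CLN2, with circles for Exp 1 and triangles for Exp 2. CLB1 minus CLB2 is above 1.7 on all 4 tet arrays and near 0 in the tagged strain; CLN1 minus CLN2 is below 0 in tet over own promoter and after 10 h of doxycycline.

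With HCM1 deleted, neither CLB1 nor CLB2 passed a test. CLB1 was -0.17 and 0.21 (mean 0.02 ± 0.27, SD, n = 2), with a 95% interval of -0.25 to 0.29 in the array test, and the arrays differed in sign. CLB2 was -0.52 and -0.22 (mean -0.37 ± 0.21, SD, n = 2), lower on both arrays, with an interval of -0.63 to -0.11 and an adjusted p of 0.0562 in the limma array test. CLB2 was thus below 0 with HCM1 deleted as well as with HCM1 overexpressed. CLB2 was the lowest and CLN1 the highest of the 10 genes in the deletion.

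CLB3 and CLB4 encode the cyclins of spindle assembly. CLB3 was 0.35 and 0.62 in tetHCM1HA over HCM1HA (mean 0.49 ± 0.19, SD, n = 2) and 0.58 and 0.98 in tetHCM1HA without over with doxycycline (mean 0.78 ± 0.28, SD, n = 2), a 1.72-fold higher level. All 4 arrays were above 0. It passed the array test in both, with limma adjusted p = 0.0230 and 0.00124, and not the control test, where adjusted p was 0.583 in the second. The deletion gave -0.15 and 0.05, around 0. With 10 h of doxycycline in HCM1HA, CLB3 was 0.37 and 0.26 (mean 0.31 ± 0.08, SD, n = 2), which is the opposite direction to the effect of doxycycline in tetHCM1HA, so that adding this control ratio gave a larger value, 1.09 ± 0.20 (SD, n = 2).

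CLB4 was measured on both arrays only in the deletion, at -0.30 and -0.10. It had 1 array in each tet comparison, -0.35 on Exp 1 of tetHCM1HA over HCM1HA and 1.51 on Exp 2 of tetHCM1HA without over with doxycycline. These single values have opposite signs and no replicate check.

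CLB5 and CLB6, the S-phase cyclin genes, passed no test in the Hcm1 comparisons, and CLB6 could not be tested. CLB5 was 0.16 and -0.12 in the deletion, 0.02 and -0.10 in tetHCM1HA over HCM1HA, and 0.01 and -0.38 in tetHCM1HA without over with doxycycline. The arrays straddled 0 in each of these comparisons. The array test intervals of CLB5 were -0.31 to 0.34, -0.36 to 0.29 and -0.51 to 0.14. CLB6 was 0.14 and -0.01 in the deletion, and it had 1 array in each tet comparison, 0.95 on Exp 1 of tetHCM1HA over HCM1HA and -0.23 on Exp 2 of the other.

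CLB5 was the gene of the 10 furthest from 0 in HCM1HA over wild type, at 0.55 in the first column, above 97.4% of ORFs. The second column gave -0.55, and with the sign turned CLB5 lies below 97.4% of ORFs, so the size can be read and the direction cannot. With 1 column there is no replicate check. The other 7 genes measured lay between -0.27 and 0.07 in the first column.

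**Figure D3:**
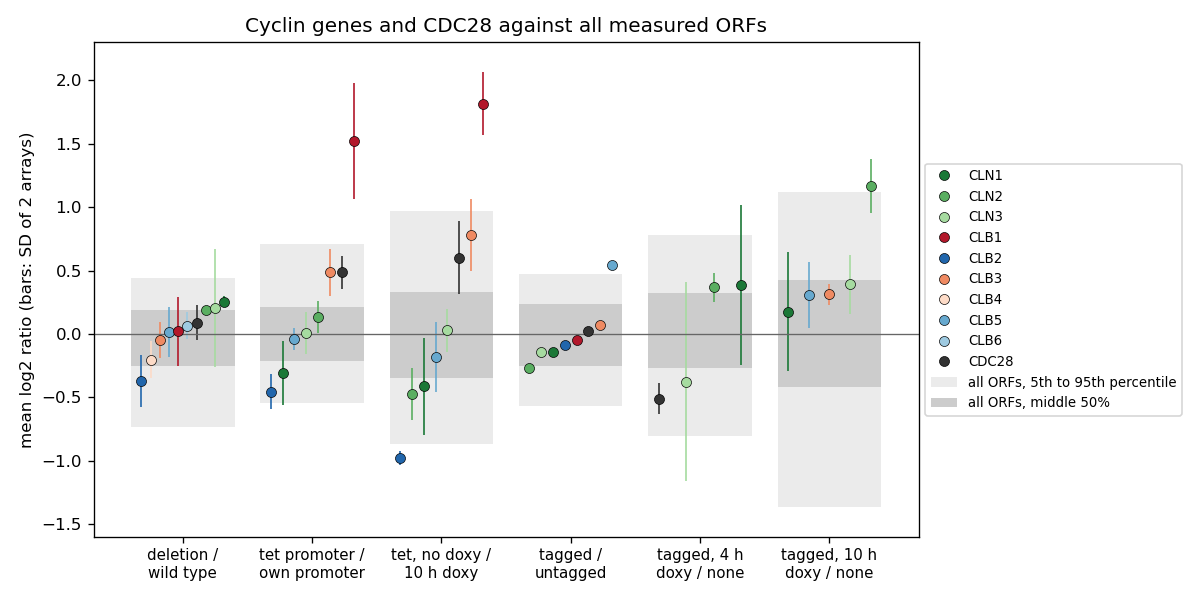
Points are mean log2 ratios of the genes in each comparison with bars for the SD of 2 arrays (no bar for the single column of the tagged strain), over grey bands for the 5th to 95th percentile and the quartiles of all ORFs. CLB1 lies above the band in both tet comparisons, CLB2 below it in tet without over with doxycycline, CLB5 outside it in the tagged strain (above as labelled, below with the sign turned) and CLN2 above it after 10 h of doxycycline.

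The G1 cyclin genes CLN1 and CLN2 had smaller ratios than CLB1 under HCM1 overexpression. CLN1 was -0.49 and -0.13 in tetHCM1HA over HCM1HA and -0.68 and -0.14 in tetHCM1HA without over with doxycycline (means -0.31 ± 0.25 and -0.41 ± 0.38, SD, n = 2). All 4 arrays were below 0. The array test passed in the second only, with limma adjusted p = 0.143 and 0.0356. CLN2 was 0.05 and 0.23 in the first and -0.62 and -0.33 in the second (means 0.14 ± 0.13 and -0.48 ± 0.21, SD, n = 2), and the array test passed in the second (limma adjusted p = 0.427 and 0.00889). The second denominator holds doxycycline, and CLN2 was higher with doxycycline alone, as given below. Adding that 10 h control ratio turned CLN2 to 0.39 and 0.99, a mean of 0.69 ± 0.42 (SD, n = 2).

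CLN3, the upstream G1 cyclin gene, was 0.13 and -0.11 in tetHCM1HA over HCM1HA and 0.15 and -0.09 in tetHCM1HA without over with doxycycline. Both pairs straddled 0. In the deletion CLN3 was 0.53 and -0.12, while CLN1 was 0.22 and 0.28 and CLN2 was 0.19 on each array. The array test intervals in the deletion were -0.06 to 0.57 for CLN1, -0.07 to 0.45 for CLN2 and -0.34 to 0.75 for CLN3, and each includes 0.

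CDC28, the kinase gene, was 0.39 and 0.58 in tetHCM1HA over HCM1HA (mean 0.49 ± 0.13, SD, n = 2) and 0.40 and 0.81 in tetHCM1HA without over with doxycycline (mean 0.60 ± 0.29, SD, n = 2). All 4 arrays were higher. It passed the array test in both, with limma adjusted p = 0.0140 and 0.00241. In the deletion it was -0.01 and 0.19 (mean 0.09 ± 0.14, SD, n = 2). With 4 h of doxycycline in HCM1HA it was -0.60 and -0.42 (mean -0.51 ± 0.12, SD, n = 2, limma array test, adjusted p = 0.00641). At 10 h its 1 array, Exp 1, gave -0.25. Adding that control ratio to the Exp 1 ratio of tetHCM1HA without over with doxycycline lowered CDC28 from 0.40 to 0.15.

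Counted over the genes, the control test called 0 of 6 in the deletion, 0 of 6 in tetHCM1HA over HCM1HA and 0 of 6 in tetHCM1HA without over with doxycycline. It called 0%, 0% and 0.0403% of all ORFs tested there, and none of the 6 reached an unadjusted p below 0.05. With the 10 h doxycycline control left out of the spread, it called 0 of 4 in each. The array test called 0 of 8, 4 of 8 (CLB1, CLB3 and CDC28 higher, CLB2 lower) and 6 of 8 (the same 4 with the same signs, and CLN1 and CLN2 lower). It called 20% of all ORFs in the deletion (6.85% higher, 13.1% lower), 21.7% in the second comparison (12.1% higher, 9.57% lower) and 47.8% in the third (23.7% higher, 24% lower), so 4 of 8 and 6 of 8 are to be read against shares that are themselves large. Without the term for Exp number it called CLB1 alone in the second comparison and 4 genes in the third, with 6.47% and 23.6% of ORFs. Past 1.5-fold on both arrays, with no test, were 0 of 10, 1 of 8 (CLB1) and 2 of 8 (CLB1 and CLB2), where 5.75%, 6.95% and 16.6% of ORFs did so. Median ratios of the genes were 0.04, 0.07 and -0.08, against -0.01, -0.01 and 0.00 for all ORFs.

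With doxycycline in HCM1HA, CLN2 rose. HCM1 itself was at 1.37 and 0.68 on the 10 h arrays, and its part in the CLN2 value was not tested. In HCM1HA with 10 h of doxycycline over none, CLN2 was 1.02 and 1.32 (mean 1.17 ± 0.22, SD, n = 2), a 2.25-fold higher level that ranked 92 from the highest of 2312 ORFs. This was the 1 call of the control test among the 10 genes in any comparison (limma adjusted p = 0.0390, 1 of 3 genes tested), in a comparison where it called 10.8% of ORFs. The call rests on the tagged strain over wild type as a control: without that control the adjusted p was 0.146, with the mean of its 2 columns 0.0855, and with ORFs of 1 control value let in 0.0713. From the Exp 1 arrays alone it was 0.161, while the array test gave 2.70e-05. In the array test 58.2% of ORFs were called, and CLN2 was the 1 gene called of 5.

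The other genes measured on both arrays at 10 h were also above 0 in the mean. CLN3 was 0.56 and 0.23, CLB5 was 0.12 and 0.49, and CLN1 was -0.15 and 0.51. All 5 of 5 means were thus above 0, with a median of 0.31, though the arrays of CLN1 straddled 0. All ORFs had a median of 0.01 and quartiles of -0.42 and 0.42. Past 1.5-fold on both arrays was 1 of 5 against 22.5% of ORFs. Of the genes with 1 array at 10 h, CDC28 was at -0.25 and CLB1 at 0.27. At 4 h CLN2 was 0.45 and 0.29 (mean 0.37 ± 0.11, SD, n = 2; limma array test, adjusted p = 0.0309), CLN1 was -0.06 and 0.83, and CLN3 was -0.93 and 0.18. CLN1 and CLN3 straddled 0 widely there. The difference between 10 h and 4 h passed for 2 of the 3 G1 cyclin genes, CLN2 and CLN3, in a limma contrast of the arrays that called 30.4% of ORFs. The control test called 0 of 3 at 4 h and 0 of 3 in the tagged strain, where it called 0% of ORFs in each. The array test called 2 of 4 at 4 h (CLN2 higher, CDC28 lower) against 40.6% of ORFs, and 0 of 8 in the tagged strain against 0.123%, where the single column has no replicate of its own. Past 1.5-fold were 0 of 4 at 4 h and 0 of 8 in the tagged strain, where 10.2% and 5.97% of ORFs were.

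CLN1 and CLN2, close relatives with shared functions at Start, came apart in 2 comparisons. CLN1 minus CLN2 was -0.53 and -0.36 in tetHCM1HA over HCM1HA (mean -0.44 ± 0.13, SD, n = 2), and -1.17 and -0.81 at 10 h of doxycycline (mean -0.99 ± 0.25, SD, n = 2). In the deletion it was 0.03 and 0.09.

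A ratio of repressed to native HCM1 with doxycycline on both sides can be derived from 3 comparisons: tetHCM1HA over HCM1HA, minus tetHCM1HA without over with doxycycline, minus the 10 h control. HCM1 itself came to -1.51 in it. It could be formed for 5 of the genes and 2145 ORFs. CLB3 was -0.60 and -0.62 (mean -0.61 ± 0.01, SD, n = 2), CLN2 was -0.35 and -0.77 (mean -0.56 ± 0.30, SD, n = 2), and CLN3 was -0.58 and -0.24 (mean -0.41 ± 0.24, SD, n = 2). CLB5 was -0.11 and -0.21, and CLN1 was 0.35 and -0.49. All but CLN1 were thus below 0 for both Exp numbers.

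All 5 means were below 0, with a median of -0.41, while 52.3% of ORFs were below 0, with a median of -0.05. CLB3 was the 1 of 5 past 1.5-fold for both Exp numbers, as 22.9% of ORFs were. In a limma contrast of the arrays with the Exp term, CLN2 passed with adjusted p = 0.0451, CLB3 and CLN3 did not with 0.0666 and 0.106, and 32.7% of ORFs passed. The values share arrays with the comparisons above. The 10 h control enters this ratio with its sign turned, and all 5 genes had means above 0 in that control. Those means were 1.17 for CLN2, 0.39 for CLN3, 0.31 for CLB3, 0.31 for CLB5 and 0.18 for CLN1. The sign shared by the 5 derived means is therefore not separate from that result. In the deletion the same genes were at -0.05 for CLB3, 0.19 for CLN2, 0.21 for CLN3, 0.02 for CLB5 and 0.25 for CLN1. The means of CLN1, CLN2, CLN3 and CLB5 were thus above 0 in the deletion. They were below 0 in the derived ratio, which subtracts the 10 h control. The arrays of CLN3 and CLB5 in the deletion and those of CLN1 in the derived ratio straddled 0, and the difference was not tested.

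**Figure D4:**
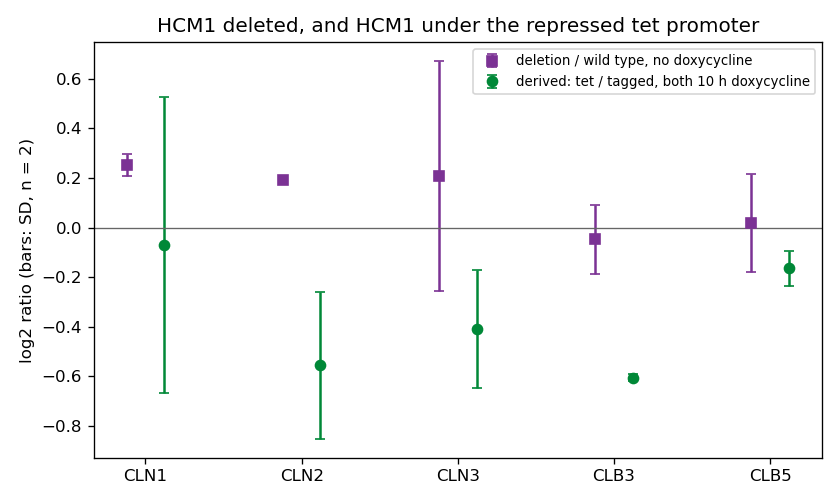
Squares are the mean log2 ratio in Δhcm1 over wild type and circles the derived ratio of tetHCM1HA over HCM1HA with 10 h of doxycycline on both sides, with bars for the SD over 2 Exp numbers, for the 5 genes that have both. The circles of CLN2, CLN3 and CLB3 lie at -0.56, -0.41 and -0.61, each below its square.

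For the lists of related genes that follow, counts are those of the array test, which called 20%, 21.7% and 47.8% of all ORFs in the 3 Hcm1 comparisons. The control test called 0 genes of any of these lists in those 3 comparisons. Proteins that bind or modify Cdc28 formed the first list of related genes, with 8 of 9 measured in the 3 Hcm1 comparisons. In the array test 0 passed in the deletion, 1 rose in tetHCM1HA over HCM1HA, and 1 rose and 3 fell in tetHCM1HA without over with doxycycline, of 8 tested each time, and 47.8% of all ORFs were called in the last. MIH1, the phosphatase that removes the inhibitory phosphate from Cdc28, was the one that rose, at 0.45 ± 0.29 and 0.72 ± 0.38 (SD, n = 2). In the last comparison CAK1, the kinase that activates Cdc28, was at -0.55 ± 0.01, the Cdc28-Cln inhibitor FAR1 at -0.44 ± 0.23 and the kinase chaperone CDC37 at -0.55 ± 0.20. MIH1 fell with 10 h of doxycycline in HCM1HA, at -1.42 ± 0.44, by the control test also (limma adjusted p = 0.00926). That fall is larger than the ratio of 0.72 without over with doxycycline in tetHCM1HA. The part of doxycycline in that ratio was not tested. SWE1, the kinase that inhibits Cdc28-Clb2, was at -0.35, -0.40 and -0.33 in the 3 comparisons and passed in none.

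Of 15 transcription regulators of cyclin genes, 15, 10 and 11 were measured in the 3 comparisons, with medians of -0.24, -0.15 and -0.14. In the array test 4 fell in the deletion: SWI6, a subunit of SBF and MBF (-0.53 ± 0.50), BCK2, an activator of G1 cyclin genes (-0.58 ± 0.03), the forkhead gene FKH1 (-0.62 ± 0.10) and MCM1 (-0.74 ± 0.49). FKH1 lies on chromosome IX, whose 193 measured ORFs had a median of -0.92 in the deletion against 0.01 for the other 4968. NDD1, the coactivator of the CLB2 cluster, passed in both tet comparisons at 0.60 ± 0.24 and 0.65 ± 0.20, and it was at 0.01 in the deletion. BCK2 was lower in the deletion and in both tet comparisons, at -0.50 ± 0.34 and -0.75 ± 0.08 in the latter. FKH2 passed in none, at -0.16, 0.24 and 0.03. At 10 h of doxycycline YOX1, a repressor of early cell cycle genes, was at 1.37 ± 0.35 and FKH1 at 0.88 ± 0.02, and both passed the array test.

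Genes for cyclin destruction, through the ubiquitin ligases SCF and anaphase-promoting complex, had 18, 12 and 14 of 22 measured. In the array test 4 fell in the deletion, 1 fell in tetHCM1HA over HCM1HA, and 2 rose and 4 fell in tetHCM1HA without over with doxycycline, of 14, 12 and 14 tested. In the tet comparisons these shares were below the 21.7% and 47.8% of all ORFs. CDC53, the cullin of SCF, fell in all 3, at -0.53 ± 0.27, -0.58 ± 0.22 and -0.85 ± 0.15. The anaphase-promoting complex subunit APC11 (0.79 ± 0.24) and the SCF ubiquitin-conjugating enzyme CDC34 (0.54 ± 0.24) were the 2 that rose in the last comparison. CDC34 was also lower with doxycycline in HCM1HA, at -1.09 ± 0.76 after 10 h (limma array test, adjusted p = 0.000119). The part of doxycycline in its rise was not tested. MND2, at -0.88 ± 0.50 in the deletion, lies on chromosome IX. CDC20 and CDH1, the activators of the complex, were within 0.19 of 0 in all 3 comparisons.

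Other cyclin-dependent kinases of yeast were set beside Cdc28. Among 12 genes of Pho85 and its cyclins, 1 rose and 1 fell in the deletion, 1 rose in tetHCM1HA over HCM1HA, and 2 rose and 1 fell in tetHCM1HA without over with doxycycline. Of 10 genes of the kinases that act on transcription and their cyclins, CTK2, a cyclin of the CTDK-I kinase, was at 1.42 ± 0.10 and 1.34 ± 0.14 in the tet comparisons and -0.03 ± 0.05 in the deletion. SSN3, the kinase of the Mediator, was at -1.18 ± 0.27 and -1.54 ± 0.46 there. With doxycycline alone SSN3 was also at -2.54 ± 0.65 after 4 h and at -1.34 ± 0.31 after 10 h. In the deletion it was at -0.52 ± 0.44, so it was low in every one of these. The first column of HCM1HA over wild type gave -1.21, with its direction not settled.

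CLB1 and CLB2 were next set within their own cluster. Without them, 12 and 13 of the other 15 genes of the CLB2 cluster were measured in tetHCM1HA over HCM1HA and in tetHCM1HA without over with doxycycline, with medians of 0.26 and 0.32. In the array test 6 rose and 1 fell in the first, where 21.7% of all ORFs were called, and 6 rose and 3 fell in the second, where 47.8% were. The control test called 0 of 6 in each. The cell wall sensor gene WSC4 was highest at 2.29 ± 0.39 and 2.04 ± 0.03, above CLB1 in both. BUD3, a bud site gene, was at 0.68 ± 0.23 and 1.03 ± 0.18, the polo kinase CDC5 at 0.63 ± 0.10 and 0.61 ± 0.24, the mitotic exit kinase DBF2 at 0.70 ± 0.45 and 0.83 ± 0.94, and ALK1 at 0.64 ± 0.10 and 0.40 ± 0.02. On the lower side with CLB2 stood MYO1, the type II myosin of the division ring, at -0.39 ± 0.05 and -0.44 ± 0.08, and in the second the chitin synthase CHS2 at -0.55 ± 0.08 and SWI5 at -0.46 ± 0.04. In the deletion 0 rose and 2 fell, WSC4 at -0.62 ± 0.36 and the bud site gene BUD4 at -0.41 ± 0.29.

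**Figure D5:**
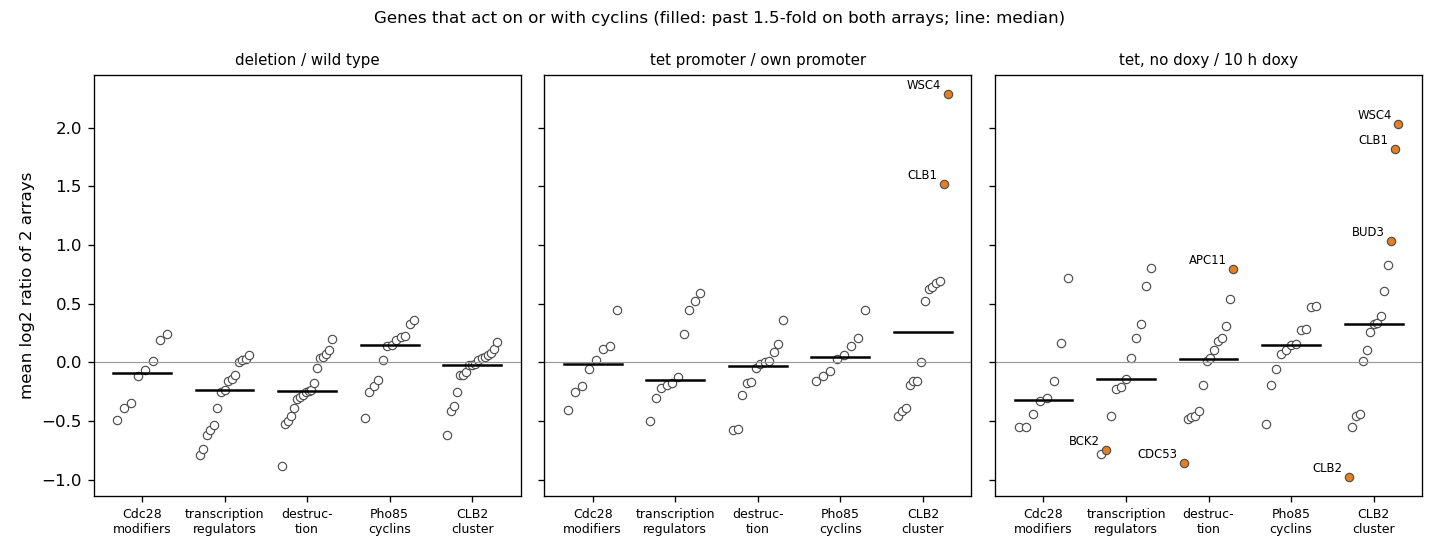
Each point is the mean log2 ratio of a gene on 2 arrays, in 5 lists for the 3 Hcm1 comparisons, with filled points past 1.5-fold on both arrays and a line at each list's median. The CLB2 cluster spans from CLB2 at -0.98 to WSC4 at 2.04 in tet without over with doxycycline, and no filled point appears in the deletion.

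Outside the cyclins, 15 genes of the G1/S cluster had medians of -0.02, -0.02 and -0.22 over 15, 11 and 14 measured in the 3 comparisons. In the last, 1 rose and 6 fell of 14 in the array test, a share near the 47.8% of all ORFs, and the control test called 0 of 3. RNR1 (-0.75 ± 0.01), RFA2 (-0.90 ± 0.27) and MCD1 (-0.78 ± 0.03), genes of nucleotide synthesis, replication and cohesion, were the lowest of them, and SVS1 was the one that rose (0.49 ± 0.31). The M/G1 cluster holds CLN3, and its 15 other genes had medians of -0.09, 0.03 and -0.05 over 12, 10 and 12 measured. In the array test 1 rose and 4 fell in the deletion, where 20% of all ORFs were called. In tetHCM1HA over HCM1HA 1 rose and 1 fell (21.7% of ORFs), and in the last 2 rose and 4 fell (47.8%). The cluster also holds 5 measured replication licensing genes. MCM3 was at -1.43 ± 0.43 in the deletion and -1.85 ± 0.57 in tetHCM1HA without over with doxycycline, MCM2 at -0.59 ± 0.16 and -0.98 ± 0.32, and MCM7 at -0.76 ± 0.02 and -0.77 ± 0.29. These 3 passed the array test in both. MCM6 was at -0.40 and -0.33, and MCM5 went the other way at 0.31 and 0.24, and neither passed. CLN3 was at 0.21 and 0.03 in these.

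Likeness of pattern was measured as the root mean squared difference of log2 ratios. Over all 6 comparisons and 1621 ORFs, the ORF closest to CLN2 was MEP3, an ammonium permease gene, at 0.170, followed by FKS1, a glucan synthase gene, at 0.173 and SUN4 at 0.195, where the median ORF was at 0.639. MEP3 and FKS1 were at 1.01 each at 10 h of doxycycline. Closest to CLN1 were GRS1 (0.135), PCM1 (0.146) and VAS1 (0.152), the first and the last of them genes for tRNA synthetases, and closest to CLN3 were HBS1 (0.0962), YPT31 (0.154) and PER1 (0.163).

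CLB1, CLB2, CLB3, CLB5 and CDC28 lacked a doxycycline comparison and were matched over 4 comparisons and 3042 ORFs; CLB4 and CLB6 were not matched. Closest to CLB1 were SPI1 (0.162), YGP1 (0.206) and YOR325W (0.214), with the median ORF at 1.22. SPI1 and YGP1, which encode cell wall proteins, were at 1.53 and 1.84 in tetHCM1HA over HCM1HA and at 1.83 and 1.73 in tetHCM1HA without over with doxycycline. Closest to CLB2 were SSA2 (0.0784), DCW1 (0.0790) and DUG1 (0.0923), and SSA2 was at -0.36, -0.40 and -0.90 in the 3 Hcm1 comparisons. LPD1 was closest to CDC28 (0.0335), AIM10 to CLB3 (0.0732) and DIG1 to CLB5 (0.0522). These matches are descriptions over few values that share arrays.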

How the data were processed

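Total RNA of exponentially growing cultures was labelled indirectly with Cy5 and Cy3, per the labels' protocols. Deposited values are ratios of the 2 dyes per the labels, and the log2 base comes from the values, since in most columns their powers of 2 fall on a regular grid. Array medians lie near 0. Scanner software and the authors' normalization method were not given in the sources used here. Each column was centred on its median, and 0 columns lacked a sample. The 2 dye-swapped arrays of a comparison were averaged, because, per the series' design text, every RNA was hybridised in both dye orientations; nothing says that Exp 1 and Exp 2 used separate cultures, so p-values of the array test may measure technical spread only.

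Tests used limma 3.58.1 in R 4.3.3 with Benjamini-Hochberg adjustment over all ORFs tested (control test: 2538, 2435 and 2480 ORFs in the Hcm1 comparisons and 1644 in each control). The fits were also run on simulated data with normal noise, which checks the code and not the spread of these arrays. The control test takes control ratios to have no true change, although it called 10.8% of ORFs in the 10 h doxycycline control. Exp numbers were checked as pairs: half-differences between the arrays correlated at 0.562 to 0.685 in all 10 pairs of comparisons, so the term for Exp number, which is the dye orientation, was kept in the array test. The first column of HCM1HA over wild type was used as labelled.

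The genes and the 11 lists of 132 genes were chosen with earlier results of these data known. Named genes were the 10 genes, HCM1, list genes past 1.5-fold on both arrays or else the highest and lowest, and the 3 nearest patterns; list genes named for passing the array test or as known regulators, the contrast for the derived ratio and the matching over 4 comparisons were chosen after values were seen. Of the ORFs, 5675 matched the RefSeq gene table used for names and neighbours and 499 did not. Sequences were not used here. The number of arrays limits precision. Alternatives changed centring, replicate unit, controls, columns, filters, fold threshold, shrinkage and doxycycline correction.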

Additional observations from a re-analysis of the deposited data

Results flagged for a closer look

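Doxycycline time gave different ratios for CLN2 and CLN3 in HCM1HA, by a test of the difference itself. The CLN2 log2 ratio was 0.80 higher at 10 h than at 4 h (SE 0.20, adjusted p = 0.00653 in a limma contrast of the arrays with the Exp term, 1970 ORFs tested), with means of 1.17 and 0.37 over 2 arrays each and higher values at 10 h on both. The CLN3 log2 ratio was 0.77 higher at 10 h (SE 0.26, adjusted p = 0.0363 in the same limma contrast), with means of 0.39 and -0.38. Its 4 h arrays lay far apart at -0.93 and 0.18. On Exp 1 CLN3 was 0.56 at 10 h and -0.93 at 4 h, and on Exp 2 it was 0.23 and 0.18. The CLN3 difference thus rests mainly on Exp 1. CLN1 differed by -0.21 (adjusted p = 0.444). In this contrast 30.4% of ORFs passed. Both times have untreated HCM1HA as denominator, and the labels do not say whether 1 culture served both.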

How the results depend on the processing

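For CLN2 at 10 h of doxycycline, the value called by the control test, most settings change only the test or the ORFs used. Its sign could not change in those. It was 1.23 as deposited, and 1.02 and 1.32 from Exp 1 and Exp 2 alone. The 10 h doxycycline correction turned CLN2 in tetHCM1HA without over with doxycycline from -0.48 to 0.69. With each array as a replicate and no replicate block, limma called 1 gene in tetHCM1HA over HCM1HA and 4 in tetHCM1HA without over with doxycycline; with the replicate block for Exp number, it called 4, 6 and, at 4 h of doxycycline, 2. The call of CLN2 at 10 h became 0 with the mean of both tagged columns, without the tagged control and, chosen after seeing the data, with ORFs of 1 control value; leaving out 1 array of each comparison gave 0 to 1. Past 1.5-fold, tetHCM1HA over HCM1HA gave 0 genes over ORFs on all 12 arrays, which drops CLB1, and 2 from either array alone. Tet without over with doxycycline gave 0 over complete ORFs, 1 at 2-fold, 4 by the mean of the arrays, 1 (CLB3) after the doxycycline correction, which CLB1 and CLB2 lack, and 4 to 5 from single arrays; 4 h gave 1 to 2 from single arrays. The derived count of 1 became 0 at 2-fold. Other counts stayed within 1.5 times of their main value, most of them at 0 in a test that called 0% to 0.0403% of ORFs in the Hcm1 comparisons. A gene's value from 1 array alone is the array value given above, and those of CLN3 at 4 h, -0.93 and 0.18, differ in sign. Depth and spot intensity were not used here, and CLB4 and CLB6 had 4 arrays each.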
